A study of Mus musculus with 6 samples.

Results

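The fractalkine axis was followed through 4 genes: Cx3cr1, the receptor, Cx3cl1, the ligand, and Adam10 and Adam17, the metalloproteases that release the ligand from the cell surface. They were taken by symbol from the deposited tables, which list 41079 genes, and all 4 were kept among the 14618 genes tested. RNA-seq was run on microglia shaken off mixed glial cultures from brains of C57Bl/6N mice aged 1 to 3 days, grown with L-929 conditioned medium, in 3 control and 3 stimulated libraries. Control cells were kept in serum-free DMEM/F12. For the stimulated cells the labels name human TGFbeta, human IL34 and CX3CL1 at 100 ng/mL each, and the methods add cholesterol, insulin-transferrin-selenium and a collagen IV coating. All components were given together, so their parts cannot be told apart, and the protein added to the medium included the ligand studied here. The labels do not say that the libraries came from separate cultures, although the methods speak of biological replicates. The p-values set differences between the groups against the spread between these libraries.

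Fractalkine is unusual among chemokines in being made as a membrane-bound protein with its chemokine domain on a mucin stalk. The anchored form can hold cells that carry CX3CR1, a Gi-coupled receptor, and the form shed by ADAM10 or ADAM17 acts as a soluble attractant. In the brain the ligand is made mainly by neurons and the receptor mainly by microglia, where their signalling is known to restrain microglial activation. ADAM10 is assisted by tetraspanins of the TspanC8 group, and ADAM17 by the iRhoms.

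Libraries held 20628148 to 27261839 counts, and the 10 most abundant genes took 14.3% to 17.2% of them in control and 19% to 24.1% in stimulated libraries. The 8 microglia and macrophage markers were present at summed levels of 8140.3 to 8759 CPM (counts scaled to library size and multiplied by a constant) in control and 11565 to 14960.2 CPM in stimulated libraries. With 4 markers higher and 2 lower at an adjusted p of 0.05 in edgeR, this list differed between the groups. Over all tested genes 14.7% were higher and 15.2% lower. In bulk RNA, a change in the share of a cell type and a change in RNA per cell cannot be told apart.

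The sequence upstream of each gene is shown to let the annotated starts of the 4 genes be compared. Each line holds the 250 bases before the outermost annotated start, read 5′ to 3′ on the strand of the gene from GRCm39 with GENCODE M39. Capitals mark GAGGAA, a core bound by PU.1 in myeloid cells, CAGAC, a SMAD box of TGF-beta signalling, and GGGCGG, a GC box, on either strand.
Cx3cr1, chr9:119898946-119899195, minus strand: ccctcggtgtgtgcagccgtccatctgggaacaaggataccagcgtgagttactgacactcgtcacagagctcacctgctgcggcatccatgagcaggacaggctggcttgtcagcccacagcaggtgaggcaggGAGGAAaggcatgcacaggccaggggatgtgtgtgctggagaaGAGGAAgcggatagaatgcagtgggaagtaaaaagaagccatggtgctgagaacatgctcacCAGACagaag
Cx3cl1, chr8:95498387-95498636, plus strand: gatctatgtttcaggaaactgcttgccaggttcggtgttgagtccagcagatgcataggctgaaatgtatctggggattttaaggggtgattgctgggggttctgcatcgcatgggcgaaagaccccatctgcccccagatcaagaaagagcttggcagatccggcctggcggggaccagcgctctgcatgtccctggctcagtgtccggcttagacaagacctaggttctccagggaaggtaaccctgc
Adam10, chr9:70585971-70586220, plus strand: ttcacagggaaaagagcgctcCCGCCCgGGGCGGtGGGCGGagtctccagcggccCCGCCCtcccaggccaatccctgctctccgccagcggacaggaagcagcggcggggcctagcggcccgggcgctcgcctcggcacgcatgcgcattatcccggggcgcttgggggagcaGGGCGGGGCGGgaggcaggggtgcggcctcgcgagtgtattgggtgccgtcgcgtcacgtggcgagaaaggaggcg
Adam17, chr12:21423673-21423922, minus strand: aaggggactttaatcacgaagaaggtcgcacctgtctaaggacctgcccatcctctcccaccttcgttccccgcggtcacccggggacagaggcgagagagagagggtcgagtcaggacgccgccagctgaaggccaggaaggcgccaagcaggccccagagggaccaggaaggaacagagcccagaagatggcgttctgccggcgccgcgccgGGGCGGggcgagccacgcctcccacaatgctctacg

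The windows fell into different types. The Cx3cr1 window held 56.8% G or C, 6 CpG dinucleotides, 2 GAGGAA cores at -115 to -110 and -72 to -67 from the start, and 1 CAGAC box at -10 to -6. GAGGAA, which contains the shorter ETS core GGAA, was present on either strand in 22.9% of the same windows of 21734 protein-coding genes, and CAGAC in 41.9%. The Cx3cl1 window was similar in composition, with 55.6% G or C and 7 CpG, and held none of the capitalised motifs. Both sheddase windows were of the CpG-rich kind. The Adam10 window held 74% G or C and 31 CpG, with a G and C content above that of 97.8% of the windows, and 6 GC boxes, 2 of which overlapped by a base. One match to the E-box CACGTG, present in 5.7% of windows, lay at -21 to -16 of Adam10. The Adam17 window held 66% G or C, 21 CpG and 1 GC box, a motif found in 29.9% of windows. Neither TATAAA nor the AP-1 letters TGANTCA, which 12.5% and 6.46% of windows held, occurred in any of the 4. Of the 250 bases, 249 for Adam17 and 34 for Cx3cr1 are annotated exon of long noncoding genes on the opposite strand, Gm49586 and Gm33858. These matches describe letters and not bound sites. Neither the start used in these cells nor a link from the letters to the responses was tested.

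Cx3cr1, the receptor, rose strongly. Raw counts were 6932, 6852 and 8454 in control and 27615, 31182 and 27524 in stimulated cells. Scaled by library, these were 303, 279 and 309 CPM against 1308, 1328 and 1331 CPM. The groups were far apart, every stimulated library exceeding every control library as for 21.4% of all tested genes, and the stimulated libraries differed little among themselves. The control mean was 297 ± 15.8 CPM and the stimulated mean 1322 ± 12.8 CPM (SD, n = 3 per group). This was a log2 fold change of 2.15 (SE 0.09, 95% interval 1.95 to 2.36), or 4.45-fold, and by the quasi-likelihood test of edgeR the p adjusted after Benjamini and Hochberg was 1.93e-07. Over all tested genes 29.8% passed at an adjusted p of 0.05, 14.7% as higher and 15.2% as lower, and 223 genes had a higher log2 fold change than Cx3cr1.

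**Figure D1:**
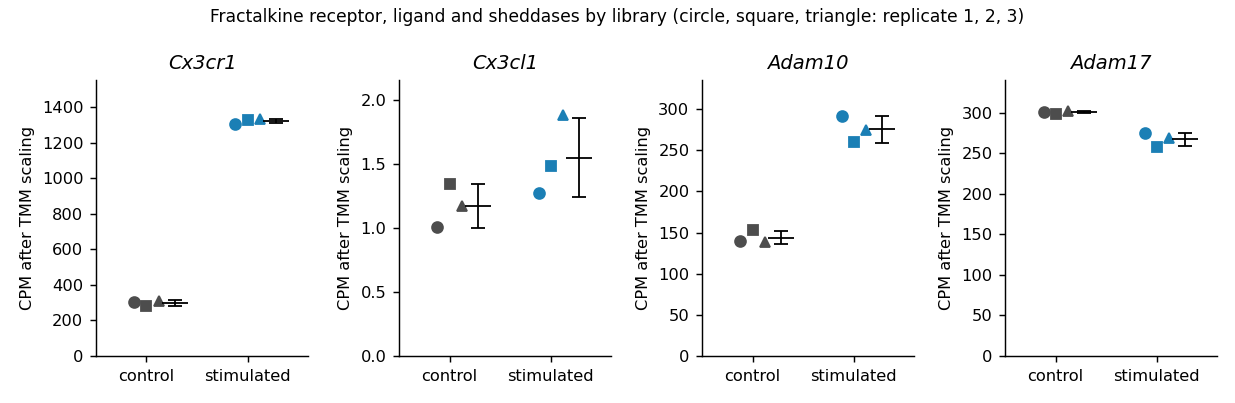
Levels of the receptor, the ligand and both sheddases in each library, in CPM on an axis from 0, one panel per gene, for 3 control and 3 stimulated libraries with the mean and SD. Cx3cr1 and Adam10 lie higher in every stimulated library, Adam17 lies slightly lower, and the Cx3cl1 groups overlap.

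Cx3cr1 lies at chr9:119877749-119898945 on the minus strand (ENSMUSG00000052336.10, GRCm39). It shares 78 exon bases with Gm33858, a long noncoding gene on the opposite strand, which is named because of that overlap and was chosen after its values were seen. Gm33858 measured 17.1, 15.1 and 20.4 CPM in control and 85.3, 65.6 and 76.0 CPM in stimulated libraries. All stimulated values were higher, as for 21.4% of all tested genes. Its log2 fold change was 2.11 (SE 0.14, adjusted p 2.47e-06, edgeR). The strand setting of the counting is not given in the sources used here, so reads of the 2 genes over the shared bases cannot be told apart. The mean count of Gm33858 was 1039 against 18093 for Cx3cr1.

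The rise of Cx3cr1 was also set against RNA of the same cells. The ratio of its counts to the summed counts of Aif1, Itgam, Csf1r and Ptprc, all genes of microglia and macrophages, was 0.0772, 0.0739 and 0.0821 in control and 0.347, 0.358 and 0.353 in stimulated libraries. The ratio was 4.54-fold higher in the stimulated group, close to the 4.45-fold measured relative to the library. The groups did not overlap, and the two-sided exact permutation p was 0.1, the smallest that 3 libraries against 3 can give. The reference genes themselves changed in opposite directions by edgeR. Itgam was higher (log2 fold change 0.82, adjusted p 1.25e-04), and Csf1r (-0.39, adjusted p 0.0111) and Aif1 (-0.45, adjusted p 0.0373) were lower. Ptprc did not pass (-0.24, adjusted p 0.108). Their sum is therefore not a stable reference. Relative to Ywhaz, a housekeeping gene that did not pass the test (adjusted p 0.329, edgeR), the rise of Cx3cr1 was 4.11-fold. Relative to Gapdh, a glycolytic gene that was itself higher (log2 fold change 0.43, adjusted p 0.0376, edgeR), it was 3.34-fold. That call of Gapdh was lost without control library 1 or 2 or stimulated library 2 or 3, with an adjusted p of up to 0.146.

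Cx3cl1, the ligand, was close to the lower limit of measurement. Counts were 23, 33 and 32 in control and 27, 35 and 39 in stimulated libraries, with exact Poisson 95% intervals, which cover counting error only, between 14.6 and 46.3 in control and between 17.8 and 53.3 in stimulated libraries. The levels of 1.01, 1.35 and 1.17 CPM and of 1.28, 1.49 and 1.89 CPM overlapped between the groups. The means were 1.17 ± 0.17 and 1.55 ± 0.31 CPM (SD, n = 3 each), and the log2 difference of 0.40 (SE 0.29, 95% interval -0.25 to 1.04) had an adjusted p of 0.347 (edgeR). A difference of the size seen for Cx3cr1 lies outside that interval.

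Since neurons are the known source of the ligand, neuronal markers are given beside it. Of 6 markers 4 were tested and 1, Nefl, was higher, beside 14.7% of all tested genes. The list summed to 3.07 to 4.72 CPM in control and 5.29 to 6.33 CPM in stimulated libraries, with Snap25 and Syt1 at 0 in some libraries. Endothelial cells can also make fractalkine. Their 5 markers summed to 78.7 to 94.6 CPM in control and 271 to 349 CPM in stimulated libraries. Flt1, a VEGF receptor, made up most of these sums, with means of 83.0 and 298 CPM, and alone passed as higher. Pecam1 (means 0.476 and 0.601 CPM) and Cdh5 (1.48 and 1.75 CPM) did not pass, and Cldn5 and Tek were at 0 in some libraries. The part of such cells in the Cx3cl1 counts was not tested. Cx3cl1 lies at chr8:95498637-95509055 on the plus strand (ENSMUSG00000031778.15) and shares 427 exon bases with 1700121C10Rik on the opposite strand, a gene with a mean count of 0.167.

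Adam10, which sheds fractalkine constitutively, rose. Its counts were 3198, 3745 and 3781 in control and 6169, 6104 and 5674 in stimulated libraries. In CPM they were 139.8, 153 and 138 against 292, 259.9 and 274. Every stimulated library thus exceeded every control library, as for 21.4% of all tested genes. The means of 144 ± 7.90 and 275 ± 16.1 CPM (SD, n = 3 each) differed by a log2 fold change of 0.94 (SE 0.09, 95% interval 0.75 to 1.13), or 1.92-fold, with an adjusted p of 2.53e-05 (edgeR). The gene lies at chr9:70586221-70687511 on the plus strand (ENSMUSG00000054693.16) and shares no exon bases with another annotated gene.

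Adam17, the sheddase best known for inducible release of fractalkine and TNF, did not pass the test. Its counts were 6890, 7329 and 8241 in control and 5798, 6060 and 5560 in stimulated libraries. The levels were 301, 299 and 302 CPM against 275, 258 and 269 CPM. Every stimulated library was below every control library, as for 22.5% of all tested genes, and the controls were tightly grouped. The means were 301 ± 1.47 and 267 ± 8.41 CPM (SD, n = 3 each), with a log2 difference of -0.17 (SE 0.08, 95% interval -0.34 to 0.0026) and an adjusted p of 0.132 (edgeR). Scaling by library size alone, which moved the median log2 fold change of all genes by -0.13, gave -0.30 for Adam17 with an adjusted p of 0.0359. With the reported scaling kept and a gene length trend removed, Adam17 also passed (-0.18, adjusted p 0.0426, edgeR). Its call thus depended on the processing, and not on the scaling alone. The gene lies at chr12:21373510-21423672 on the minus strand (ENSMUSG00000052593.18). It shares 341 exon bases with Iah1 on the opposite strand, which had a mean count of 574 against 6646 for Adam17 and a log2 difference of -0.21 (adjusted p 0.236, edgeR).

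The balance between the sheddases shifted towards Adam10. The ratio of Adam10 to Adam17 counts, in which library scaling cancels, was 0.464, 0.511 and 0.459 in control and 1.06, 1.01 and 1.02 in stimulated libraries. All stimulated ratios were above all control ratios. The ratio rose from 0.478 ± 0.0287 to 1.03 ± 0.0297 (SD, n = 3 each), or 2.16-fold, with a two-sided exact permutation p of 0.1, again the smallest possible. Per length, in the deposited FPKM, Adam10 made up 30.8%, 32.9% and 30.6% of the summed sheddase level in control and 50.5%, 49.2% and 49.5% in stimulated libraries, while the sum was 93.0 to 102 FPKM in control and 98.1 to 116 FPKM in stimulated libraries. The share of Adam10 therefore separated the groups, and the summed level overlapped between them.

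Across the 4 genes, levels can be compared per length in FPKM. Cx3cr1 measured 83.6, 77.4 and 80.3 FPKM in control and 332, 311 and 332 FPKM in stimulated libraries. Adam17 measured 68.5, 68.3 and 64.5 FPKM, then 57.5, 49.9 and 55.3 FPKM. Adam10 measured 30.5, 33.5 and 28.4 FPKM, then 58.8, 48.2 and 54.2 FPKM. Control libraries thus ranked the receptor, Adam17 and Adam10 without overlap, and in stimulated libraries the ranges of the sheddases overlapped. Cx3cl1 stood far below, at 0.331, 0.445 and 0.363 FPKM in control and 0.388, 0.417 and 0.561 FPKM in stimulated libraries.

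**Figure D2:**
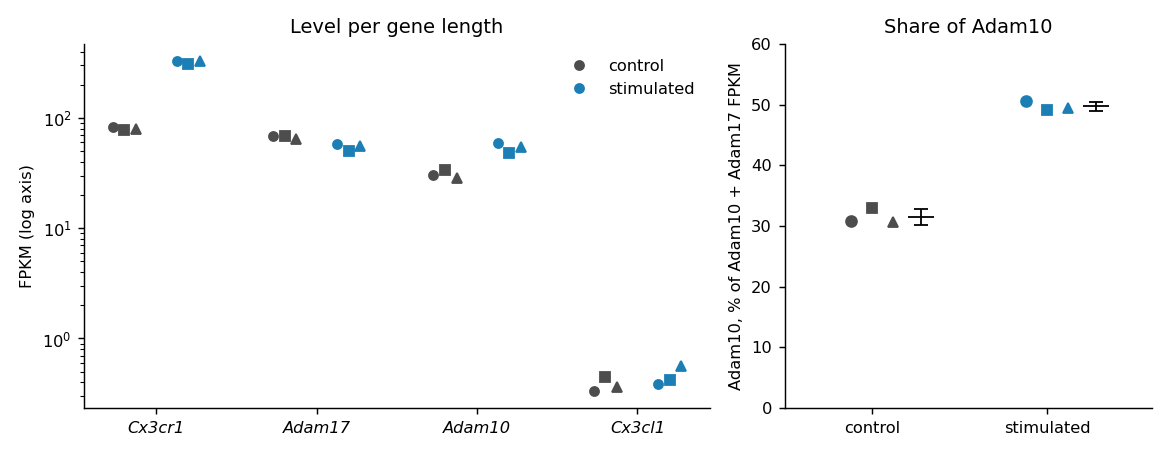
Levels per gene length in FPKM on a log axis for each library, beside the percent that Adam10 makes of the summed Adam10 and Adam17 FPKM with its mean and SD, for 3 control and 3 stimulated libraries marked by a shape per replicate. Cx3cr1 is above the sheddases in every library, Cx3cl1 is below 1 FPKM in all 6, and the Adam10 share goes from 30.6% to 32.9% in control to 49.2% to 50.5% in stimulated libraries.

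The order Cx3cr1, Adam17, Adam10, Cx3cl1 held in 5 of 6 libraries, the exception being stimulated library 1, where Adam10 was above Adam17. By mean FPKM the receptor moved from rank 708 to rank 142 of 14618 tested genes and Adam10 from 1918 to 948, while Adam17 stood at 853 and 935. The ligand had 12.3% of tested genes below it in control and 14% in stimulated libraries. The receptor exceeded its ligand 252-, 174- and 221-fold in FPKM in control and 857-, 746- and 591-fold in stimulated libraries, so all stimulated ratios were above all control ratios.

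Partners of the sheddases changed in part. Of 15 listed partners and regulators 13 were tested, 5 rose and 2 fell, or 53.8% called against 29.8% of all genes, with a median log2 fold change of 0.35 against 0.01. Tspan14, a TspanC8 tetraspanin that carries ADAM10 to the surface, was 101, 109 and 102 CPM in control and 158, 179 and 177 CPM in stimulated libraries (log2 fold change 0.72, SE 0.09, adjusted p 1.4e-04, edgeR). All its stimulated values were above all control values, as for 21.4% of all tested genes. Tspan33, another TspanC8 member, fell from 19.6 ± 1.97 to 6.09 ± 1.86 CPM (log2 fold change -1.68, SE 0.19, adjusted p 1.15e-04). These 2 were the only TspanC8 genes of 5 tested that passed, and they differed in direction. Per length, Tspan14 was the higher of them, at 36.0 FPKM in control and 53.9 FPKM in stimulated libraries, against 9.99 and 2.79 FPKM for Tspan33. Tspan5, Tspan15 and Tspan17 did not pass, with log2 differences of 0.03, 0.35 and 0.11 (adjusted p 0.881, 0.475 and 0.513).

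Regulators of ADAM17 and of both proteases moved as well. Rhbdf2, which encodes iRhom2, the carrier of ADAM17 in myeloid cells, rose from 98.5 ± 3.35 to 134 ± 6.26 CPM (log2 fold change 0.44, SE 0.08, adjusted p 0.0022, edgeR). Frmd8, which stabilises the iRhom complex and shares 20.6% of its exon bases with Frmd8os on the opposite strand, fell from 113 ± 4.13 to 87.1 ± 7.51 CPM (log2 fold change -0.37, SE 0.09, adjusted p 0.0104). Without the library numbered 3 in each group neither passed (adjusted p 0.089 for Rhbdf2 and 0.165 for Frmd8). Furin, a convertase that cuts the prodomains of both sheddases, rose from 97.7 ± 8.79 to 209.7 ± 7.41 CPM (log2 fold change 1.10, SE 0.09, adjusted p 1.28e-05), whereas Pcsk7, another convertase, measured 48.4 and 48.0 CPM (log2 difference -0.01, adjusted p 0.942).

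Inhibitors of metalloproteases were higher where they changed. Timp2 rose from 790.1 ± 29.8 to 1664 ± 220.2 CPM (log2 fold change 1.07, SE 0.12, adjusted p 7.84e-05, edgeR). Timp1, an inhibitor of ADAM10, was low and uneven, at 4.78, 7.96 and 13.8 CPM in stimulated libraries against a control mean of 3.03 ± 0.21 CPM (log2 fold change 1.54, SE 0.33, adjusted p 0.00581). Timp3, the inhibitor of ADAM17, measured 6.16 ± 0.85 and 9.72 ± 4.60 CPM and did not pass (log2 difference 0.65, SE 0.29, adjusted p 0.123), although it passed without stimulated library 1 (adjusted p 0.0339) or 2 (0.0182). Timp1 and Timp3 were both highest in stimulated library 3, where Timp3 was 14.9 CPM against 7.91 and 6.30 CPM in the other stimulated libraries. Timp3 shares exon bases with Syn3, so its count is uncertain.

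**Figure D3:**
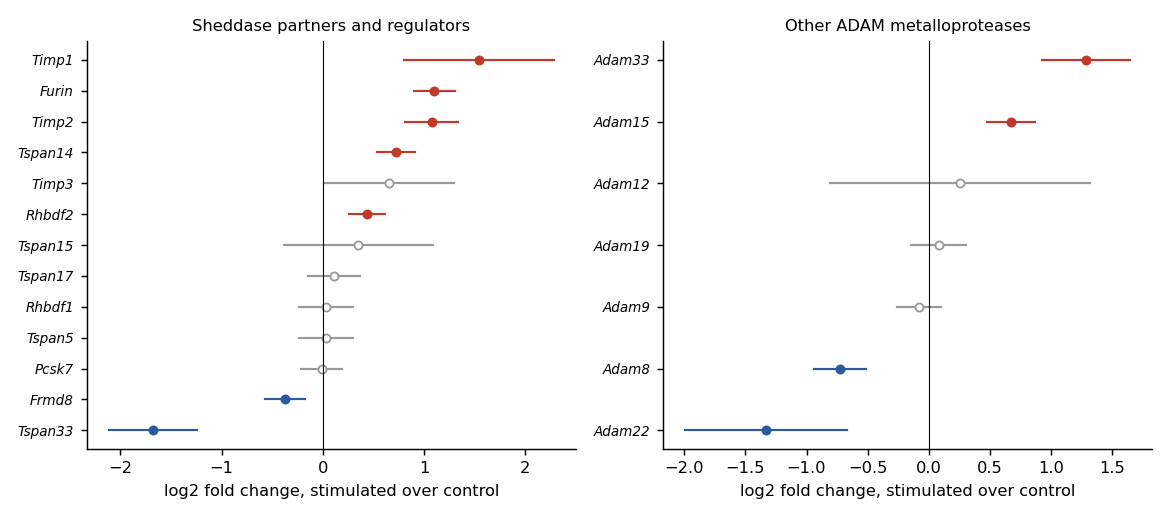
Log2 fold change of stimulated over control with its 95% interval for each tested partner and regulator of ADAM10 and ADAM17 and for other ADAM metalloproteases, filled where the adjusted p was under 0.05. Furin, Timp2 and Tspan14 lie to the right, Tspan33 and Frmd8 to the left.

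Other metalloproteases of the family showed no common direction. Of 10 listed ADAM genes 7 were tested, 2 rose and 2 fell, or 57.1% called against 29.8% of all genes, with a median log2 fold change of 0.08. Adam15 rose from 359 to 571 CPM (log2 fold change 0.67, SE 0.09, adjusted p 2.99e-04, edgeR) and Adam33 from 10.2 to 24.7 CPM (1.29, SE 0.16, adjusted p 1.93e-04). Adam8, an ADAM of myeloid cells, fell from 1348 to 816 CPM (log2 fold change -0.72, SE 0.10, adjusted p 2.9e-04) and was above the 4 fractalkine genes per length in control, at 327 FPKM. Adam22, a non-catalytic member, fell from 2.44 to 0.965 CPM (-1.33, SE 0.29, adjusted p 0.00678), and it shares 6137 exon bases with Sri on the opposite strand, so its count is uncertain. Adam9 and Adam19 did not pass, with log2 differences of -0.08 and 0.08. Ctss, cathepsin S, a cysteine protease that also cleaves fractalkine, measured 2222, 2487 and 2792 CPM in control and 2892, 4051 and 3421 CPM in stimulated libraries. All stimulated values of Ctss were above all control values, as for 21.4% of all tested genes. Its call (log2 fold change 0.47, SE 0.15, adjusted p 0.0359, edgeR) was lost without control library 1 or 2 or stimulated library 2 or 3, with an adjusted p of up to 0.149.

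Among other membrane proteins known to be shed by metalloproteases, changes went both ways. Of 31 listed, 25 were tested, 10 rose and 8 fell, or 72% called against 29.8% of all genes, with a median log2 fold change of 0.04. F11r, the junctional adhesion molecule A, rose from 23.9 to 169 CPM (log2 fold change 2.82, SE 0.12, adjusted p 1.76e-07, edgeR). Havcr2, which encodes TIM-3, rose from 38.2 to 185 CPM (2.27, SE 0.09, adjusted p 1.31e-07), and Tgfa, an EGF receptor ligand, from 16.4 to 43.4 CPM (1.40, SE 0.10, adjusted p 4.72e-06). Prnp, the prion protein, rose less, by 0.81 on the log2 scale (SE 0.13, adjusted p 9.44e-04).

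The 4 named genes that fell were Tnf, Vcam1, Icam1 and Cd44. Tnf, whose product ADAM17 is known to release, was 68.5, 71.7 and 72.6 CPM in control and 28.1, 28.8 and 29.8 CPM in stimulated libraries (log2 fold change -1.30, SE 0.08, adjusted p 2.09e-06, edgeR). All stimulated values of Tnf were below all control values, as for 22.5% of all tested genes. Vcam1 and Icam1, adhesion molecules of the immunoglobulin family, fell by 1.26 and 0.98 on the log2 scale (adjusted p 2.16e-04 and 1.51e-05), and Cd44, a hyaluronan receptor, by 0.54 (adjusted p 8.7e-04). Cxcl16, the other transmembrane chemokine and like fractalkine a substrate of ADAM10, measured 363 ± 28.5 and 291 ± 36.1 CPM (log2 difference -0.32, SE 0.11, adjusted p 0.0564). It passed under 11 of 21 alternative settings, among them library size alone (adjusted p 0.0054), and shares 41.6% of its exon bases with Zmynd15 and 43.2% with Med11, both on the opposite strand, so its count is uncertain. Per length it was 203 FPKM in control and 148 FPKM in stimulated libraries, far above Cx3cl1. Aplp2 had a log2 difference of 0.12 and did not pass.

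Downstream of the receptor, Gi signalling genes and integrins changed unevenly. Of 27 listed genes, all tested, 6 rose and 12 fell, or 66.7% called against 29.8% of all genes, with a median log2 fold change of -0.20. Integrins to which the chemokine domain of fractalkine can bind went in opposite directions. Itgav was 114, 119.7 and 103 CPM in control and 331, 224 and 252 CPM in stimulated libraries (log2 fold change 1.26, SE 0.14, adjusted p 9.12e-05, edgeR), and its partner Itgb3 rose from 12.6 to 28.6 CPM (1.19, SE 0.14, adjusted p 1.07e-04). Itga4 was 105, 109.8 and 86.2 CPM in control and 34.6, 24.3 and 22.4 CPM in stimulated libraries (log2 fold change -1.89, SE 0.17, adjusted p 1.8e-05). The groups did not overlap for any of these subunits. Such separation was seen upward in 21.4% and downward in 22.5% of all tested genes. Itga4 shares 20.8% of its exon bases with Cerkl on the opposite strand, which had a mean count of 165 against 1536 and a log2 difference of -1.89, so reads of the pair cannot be told apart there. Itgb1, the partner of Itga4, measured 562 and 493 CPM and did not pass (log2 difference -0.19, adjusted p 0.124). It passed as lower under 7 of 21 alternative settings, among them library size alone (adjusted p 0.0396) and omission of stimulated library 1 (0.0461).

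**Figure D4:**
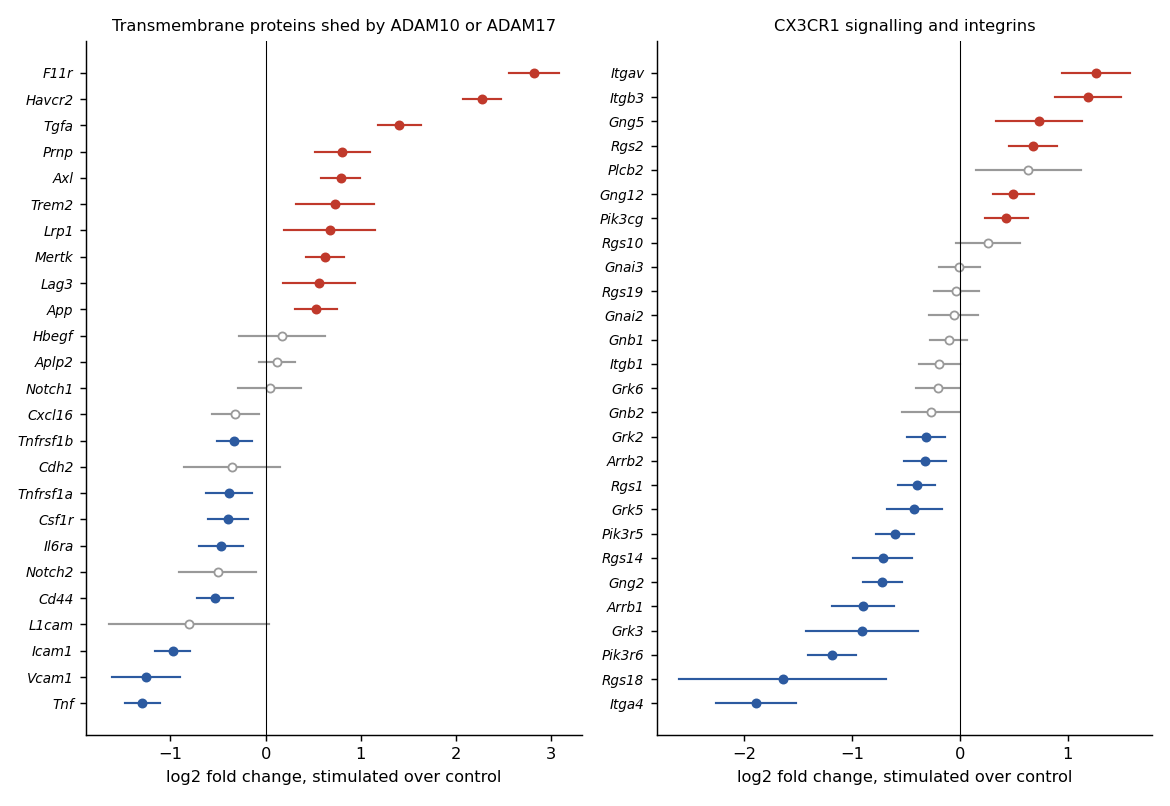
Log2 fold change of stimulated over control with its 95% interval for shed membrane proteins and for CX3CR1 signalling genes with integrins, filled where the adjusted p was under 0.05. F11r and Havcr2 lie farthest right among the shed proteins, and Itgav and Itga4 lie at opposite ends of the signalling genes.

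Gnai2, a Gi alpha subunit, had a log2 difference of -0.06 (adjusted p 0.73, edgeR). Pik3r6, a regulatory subunit of PI3-kinase gamma, fell from 28.2 to 12.4 CPM (log2 fold change -1.18, SE 0.10, adjusted p 1.5e-05), and Rgs2, a regulator of G protein signalling, rose from 137 to 218 CPM (0.67, SE 0.10, adjusted p 5.66e-04). Of the 18 called genes of this list, 6 lost the call when a single library was left out, namely Grk2, Grk5, Arrb2, Gng5, Grk3 and Rgs18. Grk2 and Grk5, receptor kinases, and Arrb2, a beta-arrestin, are named for this, after their values were seen. Grk2 and Grk5 lost it without control library 1, 2 or 3 or stimulated library 3 (adjusted p of up to 0.0699 and 0.0686), and Arrb2 without control library 1 or 3 or stimulated library 3 (up to 0.09). Gng5, a G protein gamma subunit, rose by a log2 fold change of 0.73 (adjusted p 0.0113), which was lost without control library 1 (adjusted p 0.0584). Gng5 shares 85.6% of its exon bases with Rpf1 on the opposite strand, with a mean count of 584.5 against 3081 for Gng5, so its count is uncertain. Grk3, a receptor kinase, fell by 0.91 on the log2 scale (adjusted p 0.0146), and the call was lost without control library 1 or 2 or stimulated library 3, with an adjusted p of up to 0.0603. Rgs18 was near 1 CPM and its call (adjusted p 0.016) was lost without control library 1 or 2 or stimulated library 2 or 3, with an adjusted p of up to 0.0767.

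Genes whose pattern was most like that of a member were sought over the 6 libraries among 9838 candidates, by the root mean square difference of centred log2(CPM + 0.5). For Cx3cr1 the nearest was Csf1, the macrophage growth factor that shares a receptor with IL34, at 0.0481 log2 units, followed by Ppcdc, Havcr2, Psat1 and Sec14l2 at up to 0.0889. For Adam10 they were Fgf13, Ggcx, Cpt1a, Cebpz and Hif1a, at 0.0470 to 0.0586. For Adam17 they were Vps33a, Mre11a, Itgb1, Rdx and Tomm70a, at 0.0150 to 0.0271. With 6 libraries in 2 groups, the difference between the groups weighs most in this measure. Cx3cl1 was under 5 CPM and was not matched.

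The size of the Cx3cr1 and Adam10 changes varied little with the processing. Over 21 alternatives the log2 fold change lay between 2.00 and 2.18 for Cx3cr1 and between 0.78 and 1.02 for Adam10, and both passed the threshold in each. For Cx3cl1 the log2 difference lay between 0.08 and 0.52 over 20 alternatives and passed in none, and for Adam17 it was below 0 in all 21 and passed in 7.

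**Figure D5:**
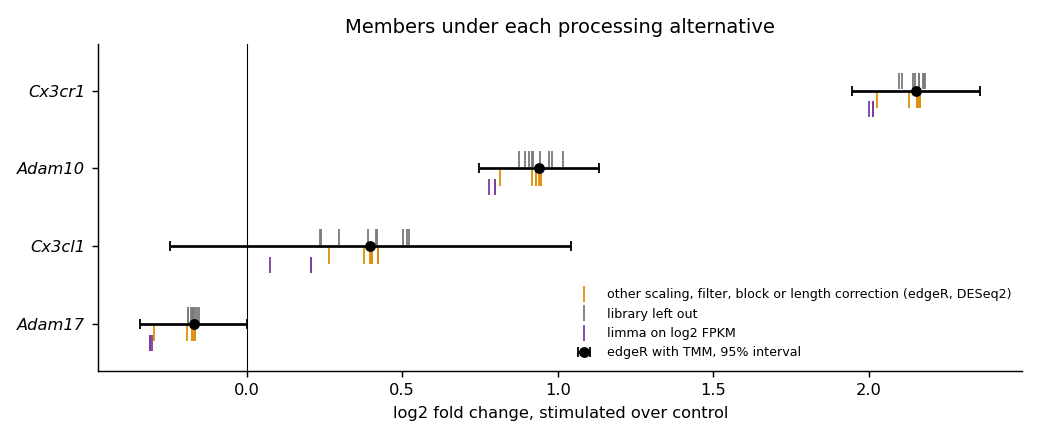
Log2 fold change of the receptor, ligand and sheddases under the reported setting (black points with 95% interval) and each alternative (ticks coloured by other scaling, filter, block or length correction, by library left out, and by limma on log2 FPKM). The ticks lie between 2.00 and 2.18 for Cx3cr1, 0.78 and 1.02 for Adam10, 0.08 and 0.52 for Cx3cl1, and -0.31 and -0.15 for Adam17.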

How the data were processed

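Reads were aligned by the authors with HISAT2 (build mm39) and assigned to genes with featureCounts. They deposited raw counts per gene and FPKM values for the same 6 libraries. Tool versions, annotation and strand setting are not given in the sources used here. The deposited FPKM are counts divided by a gene constant and a library constant.

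Tests on the counts used edgeR 4.0.16 under R 4.3.3. After filterByExpr and TMM scaling, stimulated and control libraries were compared with the quasi-likelihood test without further terms, and p-values were adjusted after Benjamini and Hochberg over 14618 genes, at a threshold of 0.05. CPM use TMM-scaled library sizes, and the coefficient of variation between replicates was 0.128. The scripts were tested on simulated data. Alternatives used RLE factors, library size alone, DESeq2 1.42.0, other filters, a replicate block, removal of a gene length trend, limma 3.58.1 on log2(FPKM + 1) or log2(FPKM + 0.1), and omission of libraries. Single ratios were compared with two-sided exact permutation tests. A gene with no count in a group was given 3 counts per library for a bound on its fold change.

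The genes and lists were chosen with earlier results of these data known. From each list were named up to 4 genes that passed in each direction with the largest log2 fold change, up to 2 of the highest mean CPM that did not pass, and partners, inhibitors or alternative proteases of the 4 genes. One gene that the rule names is not reported here. For likeness, the 5 nearest genes with a mean of at least 5 CPM over the 6 libraries were named. Positions and upstream bases came from GRCm39 and GENCODE M39, and symbols from the deposited tables.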

Additional observations from a re-analysis of the deposited data

How the results depend on the processing

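None of the 4 genes changed direction under any alternative, and no called gene of the lists did. Of the list genes that did not pass, 15 changed sign under at least 1 alternative, such as Tspan5, from 0.03 to -0.10 with library size alone. A call was lost without a single library by 6 of the 18 called shed proteins and 6 of the 18 called signalling genes. Adam17 was the only one of the 4 genes whose call changed: its log2 difference of -0.17 became -0.30 with library size alone, -0.18 with the gene length trend removed (also with the replicate block), -0.30 with limma on log2(FPKM + 1), and -0.31 on log2(FPKM + 0.1), on that scale with a mean of at least 1 FPKM, and over all genes above 0, and passed in each. The adjusted p ranged from 0.0211 to 0.536, and leaving out libraries gave -0.19 to -0.15. Cx3cl1 had no value with the filter of 1 FPKM, which removed it. Of the 4360 genes called, 49.1% were higher, against 32.3% with library size alone and 28.6% to 33% with limma on FPKM. Leaving out libraries gave 2420 to 5234 called genes, 11 to 20 shed membrane proteins and 10 to 20 signalling genes and integrins, the lowest counts coming without the library numbered 3 in both groups. The correlations of same-numbered libraries, 0.536, -0.0653 and 0.326, did not show that the numbers pair the samples, and not every library correlated best with its own number. A replicate block gave 4924 called genes, with Cx3cr1 and Adam10 still called, and Adam17 at -0.17 (adjusted p 0.12). Depth limits Cx3cl1 most, with at most 39 counts in a library. The cause of these shifts was not tested.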

Other observations

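Other chemokine receptors were lower per length than Cx3cr1. Of 22 listed 9 were tested, 1 rose and 3 fell, or 44.4% called against 29.8% of all genes, with a median log2 fold change of 0.23. Cxcr4, the receptor of CXCL12, was 45.5, 59.9 and 59.2 CPM in control and 143, 154 and 145 CPM in stimulated libraries (log2 fold change 1.42, SE 0.11, adjusted p 9.88e-06, edgeR). It was the next highest of the list per length, at 26.6 FPKM in control and 64.9 FPKM in stimulated libraries. Ccrl2, an atypical chemerin-binding receptor, fell from 21.0 to 12.5 CPM (log2 fold change -0.75, SE 0.11, adjusted p 6.05e-04). Ccr3, the eotaxin receptor, had 57, 48 and 82 counts in control and none in any stimulated library, at least 18.0-fold lower with a floor of 3 counts per library. Ccr1 and Ackr4 did not pass, with log2 differences of 0.23 and 0.60 (adjusted p 0.38 and 0.0605), and Ackr4, which passed without stimulated library 1 (adjusted p 0.0279), shares exon bases with Acad11.

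Markers of other brain cells were low beside those of microglia. Of 6 astrocyte markers 1, Aldh1l1, fell, beside 15.2% of all tested genes. The sum of the list was 33.3 to 36.2 CPM in control and 22.1 to 25.7 CPM in stimulated libraries. Aldh1l1 had means of 16.5 CPM in control and 4.64 CPM in stimulated libraries. Gfap (4.18 and 4.68 CPM) and Gja1 (5.64 and 7.94 CPM) had higher means in stimulated libraries. Aqp4, Slc1a2 and Slc1a3 had lower means, and of these genes only Aldh1l1 passed. Of 5 oligodendrocyte markers 1 rose, beside 14.7% of all tested genes, with sums of 125 to 140.2 and 155 to 189 CPM. Of 5 fibroblast markers none passed at an adjusted p of 0.05 in edgeR, with sums of 21.3 to 27.8 and 22.0 to 78.7 CPM. The upper end came from stimulated library 3, with Col1a1 at 31.5 CPM against 11.6 and 8.77 CPM in the other stimulated libraries. Col1a2 and Dcn were also highest in that library, as were Timp1 and Timp3, whereas Lum and Pdgfra were not. The part of such cells in the changes above was not tested.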
